A study of Homo sapiens with 15 samples.

Results

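The cluster genes of histones H2A and H2B were followed in RNA sequencing libraries of OCI-AML5, an established acute myeloid leukaemia cell line that was grown in medium with 20% serum and 10 ng/mL of the cytokine GM-CSF. Members were taken by symbol: every gene row named HIST1 to HIST4 followed by H2A or H2B, which gave 35 of the 19604 genes listed, 17 for H2A and 18 for H2B. The series holds 15 libraries in 5 groups of 3, which the submitters call biologic triplicates of 1 cell line. Control cells were untreated and no vehicle is named. Another group received 1000 nM ARV-825 for 4 h, and another 1000 nM OTX015 for 4 h. OTX015 is a small molecule that occupies the bromodomains of the BET proteins, and ARV-825 carries the same BET-binding part linked to a ligand of the ubiquitin ligase subunit cereblon, so that BET proteins are degraded. The remaining groups were transduced with a non-targeting shRNA or with an shRNA against the transcription factor RUNX1 for 72 h. Titles of the last group name Runx3, and its treatment label, RUNX1, was followed.

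Histones H2A and H2B form a dimer, and a pair of these dimers joins an H3-H4 tetramer in each nucleosome. The proteins are made from many short intronless genes in clusters on chromosomes 6 and 1, which are read mainly in S phase, when new DNA has to be packaged. NPAT and FLASH (CASP8AP2) gather at these clusters in the histone locus body. The mRNA normally ends not in a poly(A) tail but just past a stem-loop, which is bound by SLBP and cut with the help of the U7 snRNP, and it is degraded when DNA synthesis stops. Some of the genes, such as HIST1H2BD and HIST1H2AC, are also known to give longer polyadenylated transcripts. The labels state neither poly(A) selection nor strand, so the share of either transcript form in these libraries cannot be read from them. Reads of overlapping genes on opposite strands cannot be told apart.

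The stem-loop is the sequence by which these mRNAs are recognised, and it is shown for the genes on which the results turn. It was found past the stop codon in GENCODE 29 transcripts of 18 members, in 3 forms. The form of HIST1H2AC, HIST2H2AA3 and HIST3H2BB stands in 14 members, that of HIST1H2BD in 3 and that of HIST1H2AG in 1. The 16 bases of the stem-loop are in capitals, with 5 bases on either side, 5′ to 3′.
HIST1H2AC: ccaaaGGCTCTTTTCAGAGCCcccct
HIST2H2AA3: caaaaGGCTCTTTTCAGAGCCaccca
HIST3H2BB: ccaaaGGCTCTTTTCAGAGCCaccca
HIST1H2BD: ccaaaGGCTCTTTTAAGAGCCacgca
HIST1H2AG: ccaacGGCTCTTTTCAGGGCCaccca
Searched anywhere in protein-coding transcripts, not only past the stop codon, the same motif was present in 0.203% of 19702 protein-coding genes. Of the 40 genes that hold it 32 are named HIST. For 15 members the longest GENCODE 29 transcript is shorter than 400 bases, so the missing matches say only that the annotated transcript does not hold these letters. Annotated transcripts that hold the loop run on past it by 1917 bases in HIST3H2BB, 1761 in HIST1H2AG and 1729 in HIST2H2BE. The figures are 1640 in HIST1H2BH and 1128 in HIST1H2AC, against 35 in HIST2H2AA3 and 39 in HIST1H2BD. The longest annotated transcript of HIST1H2BD has 789 bases, however, and its GENCODE 29 span is 13204 bases.

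RefSeq promoters (build GRCh38.p14, not the hg19 of the expression files) were matched for 34 members. The 250 bases before the start are shown for the gene with the highest changes over control on the log2(FPKM + 1) scale (HIST1H2AC), for those with the most negative and the most positive difference between the drugs (HIST2H2AA3 and HIST1H2BH) and for HIST3H2BB, whose head-to-head neighbour went the other way. Capitals mark the CCAAT box, the TATAAA box and the octamer ATTTGCAT on either strand.
HIST1H2AC, chr6:26123922-26124171, plus strand: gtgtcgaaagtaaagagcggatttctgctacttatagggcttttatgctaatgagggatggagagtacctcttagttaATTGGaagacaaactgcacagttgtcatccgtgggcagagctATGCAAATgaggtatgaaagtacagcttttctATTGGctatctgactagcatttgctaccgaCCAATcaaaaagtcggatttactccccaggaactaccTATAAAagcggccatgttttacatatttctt
HIST2H2AA3, chr1:149842751-149843000, minus strand: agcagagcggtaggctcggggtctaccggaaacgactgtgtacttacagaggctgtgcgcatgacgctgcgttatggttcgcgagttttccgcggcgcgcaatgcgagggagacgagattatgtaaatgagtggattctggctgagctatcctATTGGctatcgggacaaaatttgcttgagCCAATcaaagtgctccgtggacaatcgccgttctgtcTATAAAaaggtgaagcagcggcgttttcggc
HIST1H2BH, chr6:26251364-26251613, plus strand: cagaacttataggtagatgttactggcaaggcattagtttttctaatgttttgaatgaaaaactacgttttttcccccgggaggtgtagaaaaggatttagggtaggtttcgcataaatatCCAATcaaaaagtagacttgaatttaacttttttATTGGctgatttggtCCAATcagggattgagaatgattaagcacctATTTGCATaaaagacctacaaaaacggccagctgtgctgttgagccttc
HIST3H2BB, chr1:228457853-228458102, plus strand: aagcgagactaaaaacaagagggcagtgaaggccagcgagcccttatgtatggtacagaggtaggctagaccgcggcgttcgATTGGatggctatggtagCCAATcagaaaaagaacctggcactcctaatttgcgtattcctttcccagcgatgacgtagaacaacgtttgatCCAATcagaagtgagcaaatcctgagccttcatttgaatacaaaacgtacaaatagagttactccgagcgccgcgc
Counted on either strand anywhere in the 250 bases, CCAAT was present in 34 of 34 upstream regions, TATAAA in 24 (70.6%) and ATTTGCAT in 25 (73.5%). In all 35116 RefSeq promoters of the same length the shares were 32.0%, 10.7% and 1.63%. The 34 regions are not separate sequences: head-to-head neighbours share much of this DNA, and those of HIST2H2AA3 and HIST2H2AA4 are nearly identical. The same site can thus be counted more than once. HIST1H2AC holds all of these motifs, HIST2H2AA3 lacks ATTTGCAT, HIST1H2BH lacks TATAAA and HIST3H2BB holds only CCAAT.

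The values were taken to be FPKM, a level per transcript length and library size. The files do not state this unit, and depth is unknown. The sum over all genes was 554570 to 656995 FPKM per library. Drug and shRNA libraries had been normalized separately, so levels are compared only within each set. Of 9 myeloid markers 8 reached a mean of 1 FPKM in each set, and of the erythroid, megakaryocyte, B cell, T cell, and epithelial and fibroblast markers 0 or 1 of each list did. RUNX1 was 70.6 ± 1.40 FPKM with non-targeting and 38.7 ± 3.65 FPKM with RUNX1 shRNA (SD, n = 3), and RUNX3 was 27.0 ± 1.80 and 28.4 ± 0.771 FPKM. MYC fell and HEXIM1 rose with both drugs.

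ARV-825 replicate 2 and OTX015 replicate 3 stood apart from the other libraries of their groups in the histone genes. In 33 of 10819 genes tested (0.305%) both libraries lay at least 2-fold above the others of their group on the log2(FPKM + 1) scale. These 33 genes were 14 of the 33 tested H2A and H2B members, 16 of 29 tested cluster genes of H1, H3 and H4, and 3 of 10757 other genes (MTRNR2L8, CCND2 and ZNF460). Summed over H2B genes, ARV-825 replicate 2 held 737 FPKM against 497 and 485 in replicates 1 and 3, and OTX015 replicate 3 held 917 FPKM against 619 and 546. Across the 33 members the excess in ARV-825 replicate 2 and the excess in OTX015 replicate 3 had a Pearson correlation of 0.91 and a Spearman correlation of 0.91, as a description of 33 genes in these libraries. The excess was not even among members. Of 15 members whose GENCODE 29 or RefSeq span exceeds 700 bases, a limit chosen after the values were seen, 2 were among the 33, with a median excess of 0.35 in ARV-825 replicate 2 and 0.47 in OTX015 replicate 3. Of the 18 members with shorter spans 12 were, with medians of 1.39 and 1.39. The summed level of 16 DNA replication genes was 1311 FPKM in ARV-825 replicate 2, against 1357 and 1314, and 1387 FPKM in OTX015 replicate 3, against 1386 and 1433. SLBP was 94.0 FPKM in ARV-825 replicate 2, against 101.0 and 100.2, and 90.9 FPKM in OTX015 replicate 3, against 84.7 and 96.3. These values lay within the range of their groups or at its lower end. Over all genes tested, as deviations from their group means, ARV-825 replicate 2 and OTX015 replicate 3 correlated at 0.41. Results that rest on these libraries are given with and without them. Shares called over all genes are those of the fit with all libraries.

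**Figure D1:**
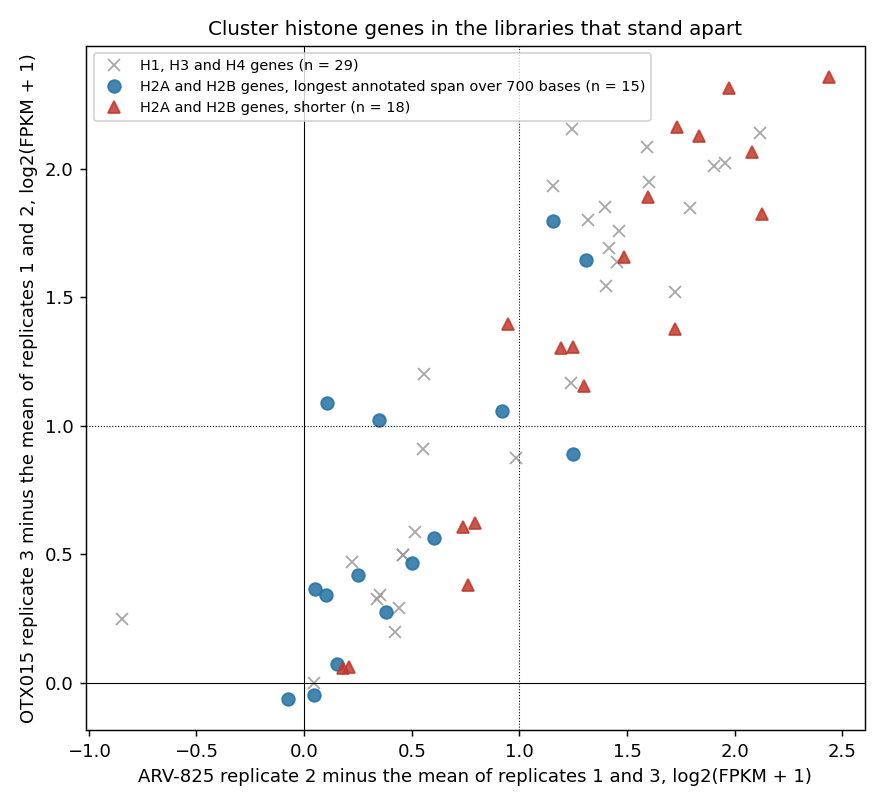
Each point is a cluster histone gene, placed by its excess in ARV-825 replicate 2 (x axis) and in OTX015 replicate 3 (y axis) over the mean of the other libraries of the group, on the log2(FPKM + 1) scale, with dotted lines at 2-fold. Triangles (18 members with spans up to 700 bases) lie mostly in the upper right, where 12 of them pass both lines, and circles (15 members with longer spans) mostly near the origin, where 2 pass.

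Untreated cells contained H2A and H2B mRNA from many genes at unequal levels. HIST1H2BK was the most abundant member, with 30.3, 37.6 and 37.8 FPKM in the control libraries. It made up 43.1 ± 6.68% of the summed H2B level (SD, n = 3). HIST2H2AA4 had 20.7, 16.4 and 15.6 FPKM and HIST2H2AA3 had 20.3, 16.3 and 15.8 FPKM. The coding sequences of this pair are identical over 393 bases, so their reads cannot be assigned to either copy and their levels are uncertain singly. The pair gave 53.3 ± 2.70% of the summed H2A level with both copies counted. How shared reads were divided between the copies is not known, so this share may be too high. The summed H2A level in control was 65.5 FPKM with both copies counted and 48.0 FPKM with the copies as their mean. HIST2H2BE followed at 10.9, 9.64 and 9.18 FPKM and HIST3H2A at 9.11, 7.96 and 8.53 FPKM. No other pair of members was identical: the next closest, HIST2H2BE and HIST2H2BF, shared 94.2% of their coding bases, and the median identity to the closest member of equal coding length was 92.3%. HIST1H2AA and HIST1H2BA, a neighbouring pair known from the testis, were listed at 0 in all 15 libraries.

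**Figure D2:**
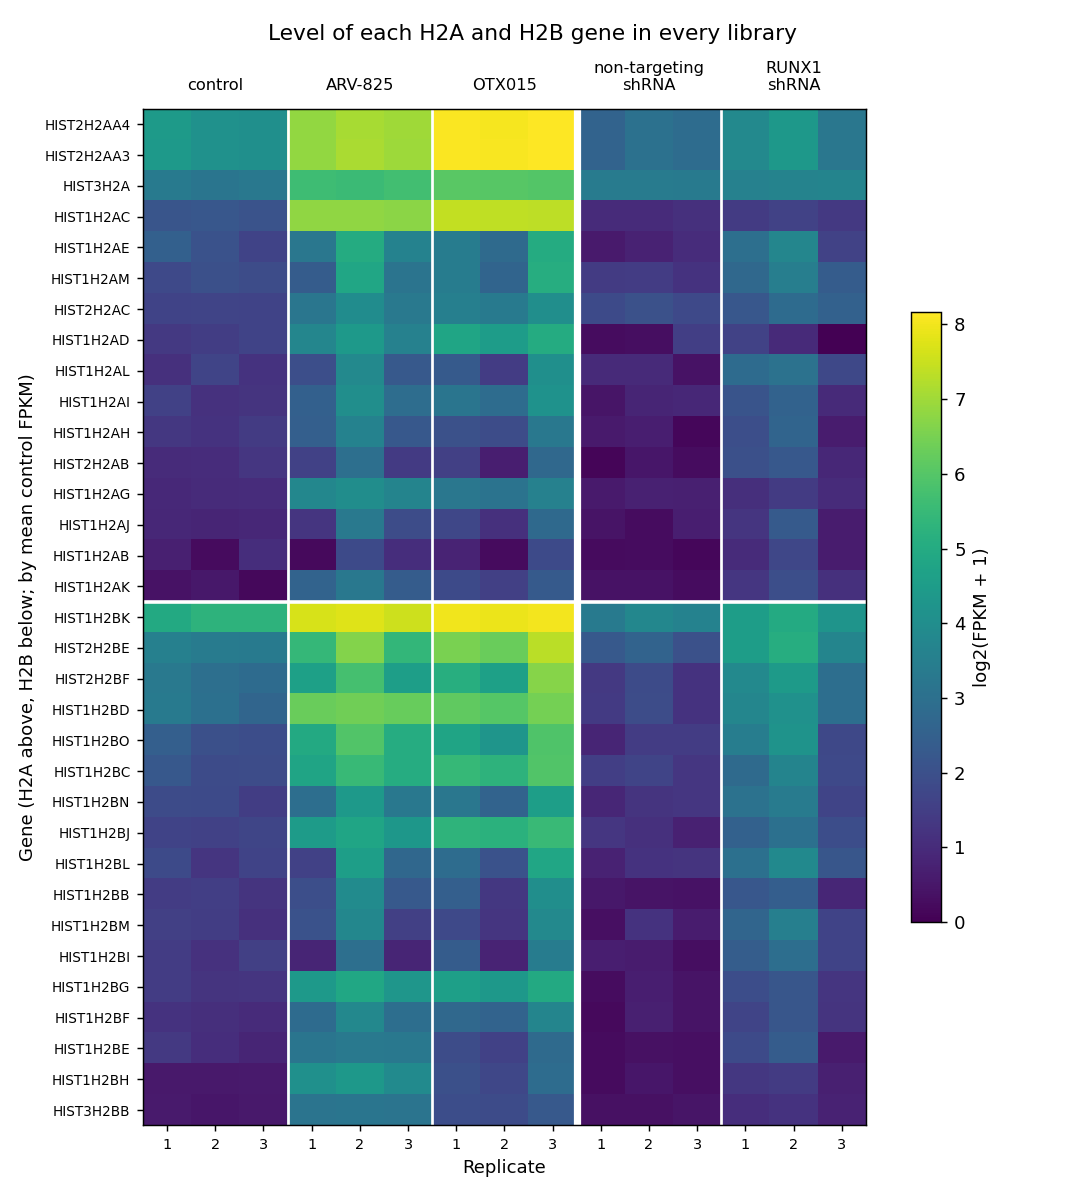
Colour gives log2(FPKM + 1) for 33 members (rows, H2A above and H2B below, ordered by mean control FPKM) in 15 libraries (columns, by group and replicate). HIST1H2AA and HIST1H2BA, listed at 0, are left out, and the thick line separates the drug from the shRNA libraries, which were normalized separately. HIST1H2AC goes from 3.28 to 3.62 FPKM in control to between 106 and 169 FPKM with either drug.

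Exposure to ARV-825 was followed by higher levels of most H2A and H2B genes within 4 h. The summed H2A level was 65.5 ± 6.33 FPKM in control and 514 ± 82.5 FPKM with ARV-825, 7.85-fold higher, and the summed H2B level was 82.1 ± 3.33 and 573 ± 142 FPKM, 6.98-fold higher (SD, n = 3). Without ARV-825 replicate 2 the means with ARV-825 were 467 FPKM for H2A and 491 FPKM for H2B. In bulk libraries a larger share of cells that hold histone mRNA and more of it per cell cannot be told apart. Of 33 members tested, 26 were higher (13 H2A and 13 H2B), 0 were lower and 7 did not pass limma's adjusted p of 0.05; at an unadjusted p under 0.05 also 0 were lower. Over all genes tested, 35.8% were called higher and 38.4% lower. The median log2 change of the members was 2.16, against -0.01 over all genes, and 2.04 without ARV-825 replicate 2 and OTX015 replicate 3, when 28 of 32 tested were called higher, among them all 26. The filter on low values (a mean of 1 FPKM over the 9 libraries) let 6 members pass only through the drug libraries. These were thus selected for higher levels with the drugs. Of the 27 with at least 1 FPKM in control, 21 were called higher.

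On the log2(FPKM + 1) scale HIST1H2AC had the largest change of the members. Its control libraries held 3.43, 3.62 and 3.28 FPKM and its ARV-825 libraries 109.9, 111 and 106 FPKM. The groups lay far apart with little spread, a 31.6-fold ratio of means and a log2 change of 4.63 ± 0.04 (SE, limma adjusted p = 2.65e-13). That was also the highest log2 change of all 10819 genes tested. The identical pair was also among the members with the largest changes: HIST2H2AA3 had 114, 138 and 125 FPKM with ARV-825 (log2 change 2.78 ± 0.09, adjusted p = 1.61e-09) and HIST2H2AA4 had 114, 136 and 127 FPKM (2.78 ± 0.09, adjusted p = 2.14e-09). Each ARV-825 library exceeded each control library for both copies. HIST1H2AG, whose control mean was below 1 FPKM, so that it passed the filter only through the drug libraries, had 0.931, 0.992 and 1.03 FPKM in control and 12.9, 14.9 and 12 FPKM with ARV-825 (2.84 ± 0.12, adjusted p = 8.01e-09). Its libraries did not overlap either.

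Of the H2B genes, HIST1H2BH likewise had a control mean below 1 FPKM and was selected for higher levels with the drugs. Its ratio of means, 34.3, was above the 31.6 of HIST1H2AC. It held 0.477, 0.472 and 0.492 FPKM in control and 16.1, 19.4 and 13.9 FPKM with ARV-825, with a log2 change of 3.55 ± 0.24 (adjusted p = 2.11e-07). HIST1H2BD, one of the genes with a known polyadenylated form, went from 9.05, 7.04 and 5.32 FPKM to 77.1, 82.2 and 76.1 FPKM (3.31 ± 0.15, adjusted p = 1.15e-08). The ARV-825 libraries agreed closely for this gene, unlike for the following ones. HIST1H2BG went from 1.72, 1.35 and 1.39 FPKM to 20.2, 27.9 and 18.6 FPKM (3.21 ± 0.16, adjusted p = 2.61e-08). HIST1H2BO went from 4.49, 3.00 and 2.80 FPKM to 30.0, 61.1 and 32.4 FPKM (3.20 ± 0.38, adjusted p = 1.7e-05). HIST1H2BC went from 3.76, 2.66 and 2.69 FPKM to 26.0, 44.5 and 32.3 FPKM (3.10 ± 0.20, adjusted p = 1.69e-07). In each of these genes replicate 2 was the highest and the groups stayed apart. HIST1H2BJ went from 2.09, 1.99 and 2.28 FPKM to 21.5, 26.6 and 19.0 FPKM (2.89 ± 0.11, adjusted p = 5.57e-09). HIST1H2BK, the most abundant member, had 203, 215 and 185 FPKM with ARV-825 (2.48 ± 0.08, adjusted p = 1.89e-09), a 5.71-fold ratio of means.

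The members that were not called with ARV-825 were HIST1H2BL, HIST1H2AL, HIST1H2BB, HIST1H2BM, HIST2H2AB, HIST1H2AB and HIST1H2BI, all with spans of at most 700 bases. Their log2 changes ran from 0.17 to 1.38, and in each ARV-825 replicate 2 was the highest of its group. HIST1H2BL had 2.01, 23.1 and 5.57 FPKM with ARV-825 against 2.54, 1.40 and 2.14 FPKM in control (1.38 ± 0.75, adjusted p = 0.116). HIST1H2BI had 0.785, 6.83 and 0.802 FPKM against 1.74, 1.24 and 1.90 FPKM (0.17 ± 0.64, adjusted p = 0.824). Replicate 2 alone lay above control for HIST1H2BI, and without it the estimate turned to -0.54. Some calls were lost when a single library was left out. HIST1H2AM (1.55, adjusted p = 0.0468) and HIST1H2AJ (1.27, adjusted p = 0.0348) were not called without ARV-825 replicate 2, at 0.86 (adjusted p = 0.183) and 0.69 (adjusted p = 0.129), nor without any single control library (adjusted p between 0.0698 and 0.101). HIST1H2AM was also not called without ARV-825 replicate 3 (adjusted p = 0.0604), and neither gene was with no filter on low values (adjusted p = 0.114 and 0.0906). Without both ARV-825 replicate 2 and OTX015 replicate 3, HIST1H2AM and HIST1H2AJ were called at the same 0.86 and 0.69 (adjusted p = 0.016 and 0.0159).

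OTX015, which blocks the bromodomains of BET proteins without marking them for degradation, was given at the same concentration for the same time and measured against the same control libraries. The summed H2A level was 893 ± 74.5 FPKM, 13.6-fold over control, and the summed H2B level 694 ± 197 FPKM, 8.45-fold over control (SD, n = 3). Without OTX015 replicate 3 these means were 853 and 582 FPKM. Of 33 members 25 were called higher (12 H2A and 13 H2B), 0 lower (also 0 at an unadjusted p under 0.05) and 8 were not called, with 36.1% of all genes called higher and 33.5% lower. The median log2 change was 1.92, against 0.03 over all genes, and 1.63 without the libraries that stood apart, when 27 of 32 were called higher, among them all 25. Of the 27 members with at least 1 FPKM in control 21 were called higher.

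**Figure D3:**
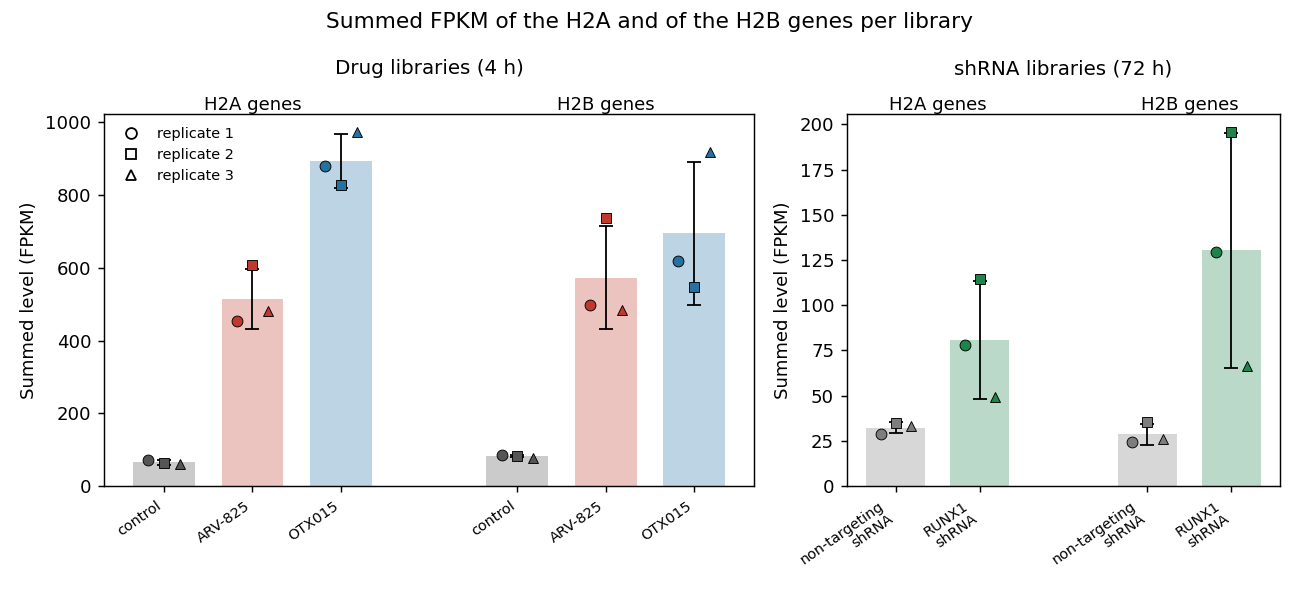
Bars give the mean summed FPKM of the H2A and of the H2B genes in each group, error bars the SD and points the 3 libraries, with drug libraries on the left and shRNA libraries on the right on separate linear axes. The drug libraries lie between 453 and 974 FPKM against 61.2 to 85.4 FPKM in control, and RUNX1 shRNA replicate 3 lies closest to its control group.

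HIST1H2AC was again the member with the largest change, with 169, 166 and 162 FPKM against 3.28 to 3.62 FPKM in control. The ratio of means was 48.0 and the log2 change 5.23 ± 0.04 (adjusted p = 7.37e-14), the highest of all genes tested. Its share of the summed H2A level was 18.6 ± 1.79% with OTX015 and 21.5 ± 3.03% with ARV-825, against 5.29 ± 0.540% in control. HIST2H2AA3 had 278, 269 and 286 FPKM (3.92 ± 0.09, adjusted p = 3.55e-10) and HIST2H2AA4 had 277, 264 and 282 FPKM (3.90 ± 0.09, adjusted p = 3.66e-10). Both copies were more than 200 FPKM above their control libraries, and together gave 62.0 ± 3.26% of the summed H2A level. This share, too, counts both copies and may be too high. HIST1H2AD, whose control libraries held 1.54, 1.82 and 2.10 FPKM, had 27.0, 21.7 and 31.8 FPKM (3.29 ± 0.20, adjusted p = 1.5e-07).

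Of the H2B genes, 6 were among the 10 members with the largest changes. HIST1H2BJ had 38.6, 36.3 and 45.6 FPKM (3.72 ± 0.11, adjusted p = 1.96e-09). HIST1H2BC had 43.5, 37.6 and 60.2 FPKM (3.56 ± 0.20, adjusted p = 9.29e-08). HIST1H2BG had 23.3, 19.6 and 29.9 FPKM (3.33 ± 0.16, adjusted p = 3.09e-08). Replicate 3 was the highest and replicate 2 the lowest in these genes, and all libraries lay above control. HIST2H2BE had 91.1, 78.2 and 157 FPKM (3.27 ± 0.32, adjusted p = 5.85e-06). HIST1H2BD had 71.8, 63.9 and 86.1 FPKM (3.22 ± 0.15, adjusted p = 2.16e-08). HIST1H2BO had 26.2, 18.1 and 58.9 FPKM (2.85 ± 0.38, adjusted p = 5.31e-05). All of these libraries lay above control, and HIST1H2BO had the widest spread relative to its mean. HIST1H2BK, at 251, 244 and 261 FPKM, and HIST3H2A, at 66.5, 64.2 and 62.5 FPKM, varied little among libraries. Their log2 changes were 2.81 ± 0.08 (adjusted p = 1.49e-09) and 2.78 ± 0.05 (adjusted p = 1.13e-10).

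Not called with OTX015 were HIST1H2BL, HIST1H2AL, HIST1H2BB, HIST1H2AJ, HIST1H2BM, HIST1H2BI, HIST2H2AB and HIST1H2AB, with log2 changes of 0.28 to 1.69. Some calls were lost when OTX015 replicate 3 alone was left out: without it HIST1H2AE was at 1.04 (adjusted p = 0.0672), HIST1H2AH at 0.65 (adjusted p = 0.099) and HIST1H2AM at 1.13 (adjusted p = 0.101). HIST1H2AH was also not called without control replicate 1 (adjusted p = 0.058) or 2 (adjusted p = 0.0705), HIST1H2AE without control replicate 3 (adjusted p = 0.0642), and HIST1H2AM without control replicate 1, 2 or 3 (adjusted p = 0.0634, 0.0519 and 0.0565). Without both OTX015 replicate 3 and ARV-825 replicate 2, HIST1H2AE, HIST1H2AH and HIST1H2AM were called at the same 1.04, 0.65 and 1.13. Their adjusted p in that fit was 0.00544, 0.000522 and 0.00444. HIST1H2BE stayed called without OTX015 replicate 3 but went from 1.02 to 0.66.

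The drugs could be compared directly at 1000 nM and 4 h, as 1 pair of related compounds that differ by the linker and the cereblon ligand. Of 33 members 5 were higher with ARV-825 than with OTX015, 8 were lower and 20 were not called. Over all genes 24.7% were higher and 33.4% lower. The median difference of the members was 0.07, against -0.04 over all genes. The shares of members called, 5 and 8 of 33, were below those of all genes in both directions. Without the libraries that stood apart 6 were higher and 9 lower of 32, with all 13 among them, and HIST1H2AH and HIST1H2BC were added.

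HIST1H2BH had the largest difference. Its libraries held 16.1, 19.4 and 13.9 FPKM with ARV-825 and 2.96, 2.34 and 6.40 FPKM with OTX015, a 4.23-fold ratio of means and a log2 difference of 1.91 ± 0.24 (adjusted p = 7.25e-05). HIST1H2BE held 7.94, 8.96 and 8.56 FPKM with ARV-825 and 2.72, 2.00 and 6.11 FPKM with OTX015 (1.14 ± 0.26, adjusted p = 0.00325). HIST3H2BB held 7.75, 8.04 and 7.73 FPKM with ARV-825 and 2.82, 2.67 and 3.82 FPKM with OTX015 (1.12 ± 0.10, adjusted p = 1.04e-05). In these H2B genes the lowest ARV-825 library stood above the highest OTX015 library, although OTX015 replicate 3 was the highest of its group. The H2A genes higher with ARV-825 were HIST1H2AK, with 5.03, 8.70 and 4.18 FPKM against 2.55, 1.89 and 3.93 FPKM (0.86 ± 0.24, adjusted p = 0.0095), and HIST1H2AG, with 12.9, 14.9 and 12 FPKM against 8.48, 7.67 and 11.1 FPKM (0.51 ± 0.12, adjusted p = 0.00408). Their groups came close to each other without overlapping.

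The members lower with ARV-825 included the identical pair of H2A genes. HIST2H2AA3 held 114, 138 and 125 FPKM with ARV-825 against 278, 269 and 286 FPKM with OTX015 (-1.14 ± 0.09, adjusted p = 4.84e-06). HIST2H2AA4, the identical copy, differed by -1.12 ± 0.09 (adjusted p = 6.93e-06). The levels of the pair with OTX015 were more than 100 FPKM above those with ARV-825 in every library. HIST1H2AD held 12.4, 20.5 and 11 FPKM against 27.0, 21.7 and 31.8 FPKM (-0.87 ± 0.20, adjusted p = 0.00354), and HIST1H2BJ held 21.5, 26.6 and 19.0 FPKM against 38.6, 36.3 and 45.6 FPKM (-0.82 ± 0.11, adjusted p = 0.000149). For HIST2H2BE the groups overlapped, at 42.1, 99.9 and 40.9 FPKM against 91.1, 78.2 and 157 FPKM (-0.89 ± 0.32, adjusted p = 0.0353). This call was lost without ARV-825 replicate 1 (adjusted p = 0.121) or 3 (adjusted p = 0.122) and without OTX015 replicate 1 (adjusted p = 0.0509) or 3 (adjusted p = 0.137), as well as with no filter on low values (adjusted p = 0.0969) or when libraries were rescaled by median ratios (adjusted p = 0.0544), and it was kept at -1.01 (adjusted p = 6.79e-05) without both libraries that stood apart. HIST1H2AC (-0.60 ± 0.04, adjusted p = 2.77e-06), HIST3H2A (-0.41 ± 0.05, adjusted p = 9.98e-05) and HIST1H2BK (-0.32 ± 0.08, adjusted p = 0.00634) were lower by less.

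**Figure D4:**
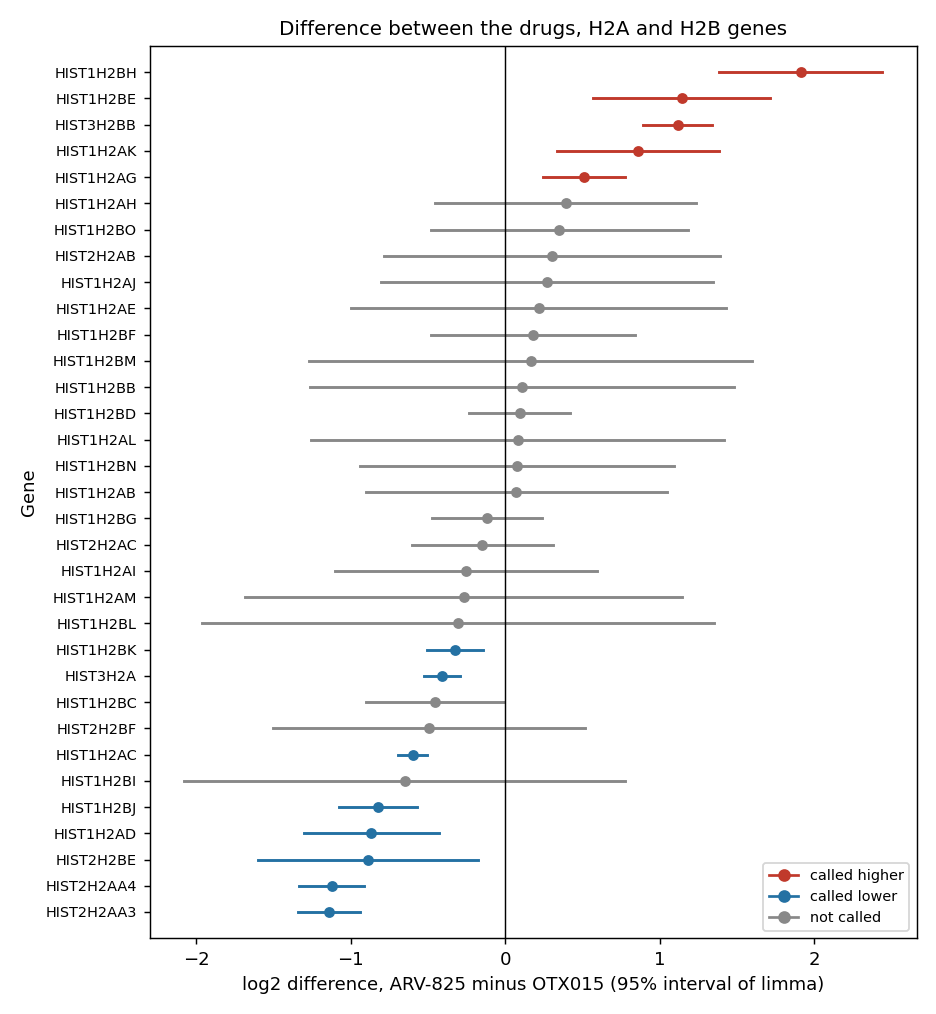
Points give the log2(FPKM + 1) difference of ARV-825 minus OTX015 for the 33 tested members, ordered by size, with the 95% interval of limma as lines. The 5 members in red were called higher with ARV-825, from HIST1H2AG at 0.51 to HIST1H2BH at 1.91, and the 8 in blue lower, down to HIST2H2AA3 at -1.14. Grey members were not called.

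Where no difference was called, the intervals were of very different width. For HIST1H2BD the difference was 0.09, with a 95% interval of -0.23 to 0.42, and for HIST1H2BG -0.12 (-0.48 to 0.24). For HIST1H2BL the interval ran from -1.97 to 1.35 and for HIST1H2BI from -2.08 to 0.78, so the former interval includes differences of more than 2-fold in either direction and the latter in the lower one.

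Many H2A genes stand head to head with an H2B gene on the opposite strand, so that 1 stretch of DNA serves as the promoter of both. The RefSeq promoters, which lack HIST1H2AH, hold 11 such pairs among the members, with starts 194 to 248 bases apart (median 236). Of these, 10 had values in the drug libraries. The log2 ratio of the H2B to the H2A gene was formed within each library after 1 was added to each FPKM value. The drugs were compared with an exact two-sided permutation test, in which 3 libraries against 3 cannot give less than p = 0.1. The groups did not overlap in 4 of the 10 pairs (exact permutation p = 0.1 each), and the others overlapped (p between 0.2 and 0.9). How often other gene pairs separate in this way was not determined, so the count only describes these pairs. In the HIST3H2A and HIST3H2BB pair the log2 ratio was -2.48 with ARV-825 (range -2.55 to -2.40) and -4.0 with OTX015 (-4.15 to -3.72), and -2.69 in control. HIST3H2BB was thus higher and HIST3H2A lower with ARV-825 although the starts are 230 bases apart. In the HIST1H2AG and HIST1H2BJ pair the ratio was 0.70 with ARV-825 (0.62 to 0.79) and 2.04 with OTX015 (1.94 to 2.10), and 0.65 in control. Here the H2A gene was the one that was higher with ARV-825. In control HIST3H2BB had a mean of 0.472 FPKM and HIST1H2AG of 0.986 FPKM. The added 1 distorts ratios at such low levels, so the control ratios of these pairs are not read as nearer to either drug. The HIST1H2AD and HIST1H2BF pair had -0.72 (-0.90 to -0.61) and -1.76 (-2.06 to -1.31), and the HIST2H2AC and HIST2H2BE pair 2.34 (2.10 to 2.68) and 3.08 (2.96 to 3.27). The HIST1H2AC and HIST1H2BC pair, with the starts 246 bases apart, did not differ beyond its spread, at -1.67 (-2.04 to -1.30) and -1.82 (-2.11 to -1.41), while its control ratio was -0.15.

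In cells with RUNX1 shRNA for 72 h the H2A and H2B genes were higher than with non-targeting shRNA, with a wide spread among the RUNX1 shRNA libraries. The summed H2A level was 32.3 ± 3.04 FPKM with non-targeting and 80.6 ± 32.6 FPKM with RUNX1 shRNA, 2.50-fold higher, and the summed H2B level was 28.6 ± 5.91 and 130.5 ± 64.9 FPKM, 4.56-fold higher (SD, n = 3). RUNX1 shRNA replicate 2 was the highest, with 114 FPKM for H2A and 196 FPKM for H2B, and replicate 3 the lowest, with 49.3 and 66.2 FPKM. Limma called 26 of 28 tested members higher (11 of 13 H2A and 15 of 15 H2B) and 0 lower, also at an unadjusted p under 0.05, with 13.5% of all genes called higher and 13.8% lower. The median log2 change was 1.36, against -0.01 over all genes. The filter let 13 members pass only through the RUNX1 shRNA libraries, and these were thus selected for higher levels there. All 15 members with at least 1 FPKM in the non-targeting group were called.

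This count depended on the filter and on single libraries. It was 16 of 33 with no filter, 8 of 8 with a mean of at least 5 FPKM, and 17 of 27 without RUNX1 shRNA replicate 1. Leaving out another single library gave 18 to 28.

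On the log2(FPKM + 1) scale the largest changes were in the HIST2 genes of H2B. By the ratio of means HIST2H2AB, at 0.234 FPKM with non-targeting shRNA, was highest, with 10.8 against 7.47 for HIST2H2BF. HIST2H2BF had 1.55, 2.62 and 1.31 FPKM with non-targeting and 13.4, 20.9 and 6.66 FPKM with RUNX1 shRNA (2.27 ± 0.34, adjusted p = 0.00187). HIST2H2BE had 3.89, 5.12 and 3.04 FPKM and 22.3, 33.0 and 12 FPKM (2.14 ± 0.31, adjusted p = 0.00154). HIST1H2BD had 1.6, 2.76 and 1.29 FPKM and 12.4, 16.5 and 6.8 FPKM (2.12 ± 0.28, adjusted p = 0.00112). In these genes even the lowest RUNX1 shRNA library, replicate 3, stood above every non-targeting library. HIST1H2AE had 0.505, 0.732 and 1.06 FPKM and 6.85, 12.5 and 2.02 FPKM (1.97 ± 0.45, adjusted p = 0.0132). HIST1H2BL had 0.707, 1.30 and 1.32 FPKM and 7.07, 13.6 and 3.55 FPKM (1.96 ± 0.35, adjusted p = 0.00481). HIST1H2BM had 0.264, 1.28 and 0.534 FPKM and 5.40, 10.5 and 2.09 FPKM (1.89 ± 0.42, adjusted p = 0.0118). The order of the RUNX1 shRNA libraries was the same in each of these genes, and the groups did not overlap.

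HIST1H2BO had 0.788, 1.73 and 1.75 FPKM and 9.91, 17.2 and 2.37 FPKM (1.88 ± 0.52, adjusted p = 0.0282). HIST1H2BI had 0.597, 0.522 and 0.230 FPKM and 4.31, 6.74 and 2.09 FPKM (1.80 ± 0.29, adjusted p = 0.00251). HIST1H2AL had 0.955, 0.943 and 0.317 FPKM and 6.26, 7.40 and 2.40 FPKM (1.79 ± 0.31, adjusted p = 0.00417). HIST1H2BI and HIST1H2AL, like HIST1H2AE and HIST1H2BM, had means below 1 FPKM with non-targeting shRNA. They passed the filter only through the RUNX1 shRNA libraries and were thus selected for higher levels there. HIST1H2BN had 0.829, 1.36 and 1.47 FPKM and 7.35, 9.55 and 2.18 FPKM (1.57 ± 0.38, adjusted p = 0.0171). The groups of these genes did not overlap either, but HIST1H2BO was not called when any single library other than RUNX1 shRNA replicate 3 was left out (adjusted p between 0.0614 and 0.088), and HIST1H2BN was not called without non-targeting replicate 1 (adjusted p = 0.058) or RUNX1 shRNA replicate 1 (adjusted p = 0.0578). With no filter HIST1H2AE (adjusted p = 0.0684), HIST1H2BM (adjusted p = 0.0629), HIST1H2BO (adjusted p = 0.112) and HIST1H2BN (adjusted p = 0.0802) were not called.

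HIST1H2AC, the member with the largest log2 changes with the drugs, had the smallest but one among those called here. It had 1.02, 0.985 and 1.20 FPKM with non-targeting and 1.68, 2.08 and 1.53 FPKM with RUNX1 shRNA (0.42 ± 0.10, adjusted p = 0.0156), and was not called without non-targeting replicate 1 (adjusted p = 0.0543) or 2 (adjusted p = 0.0598). HIST3H2A had 9.59, 9.48 and 9.11 FPKM and 10.9, 11.5 and 11.8 FPKM (0.26 ± 0.05, adjusted p = 0.0079), the smallest change among those called. The share of HIST1H2BK in the summed H2B level was 39.1 ± 3.42% with non-targeting and 19.9 ± 5.96% with RUNX1 shRNA. HIST1H2BK itself was higher, with 9.39, 12.7 and 11.2 FPKM and 22.5, 30.5 and 17.7 FPKM (1.00 ± 0.17, adjusted p = 0.00417). Not called were HIST1H2AH (1.28, adjusted p = 0.0562) and HIST1H2AJ (0.94, adjusted p = 0.0837), and both passed without RUNX1 shRNA replicate 3 (adjusted p = 0.00152 and 0.015).

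**Figure D5:**
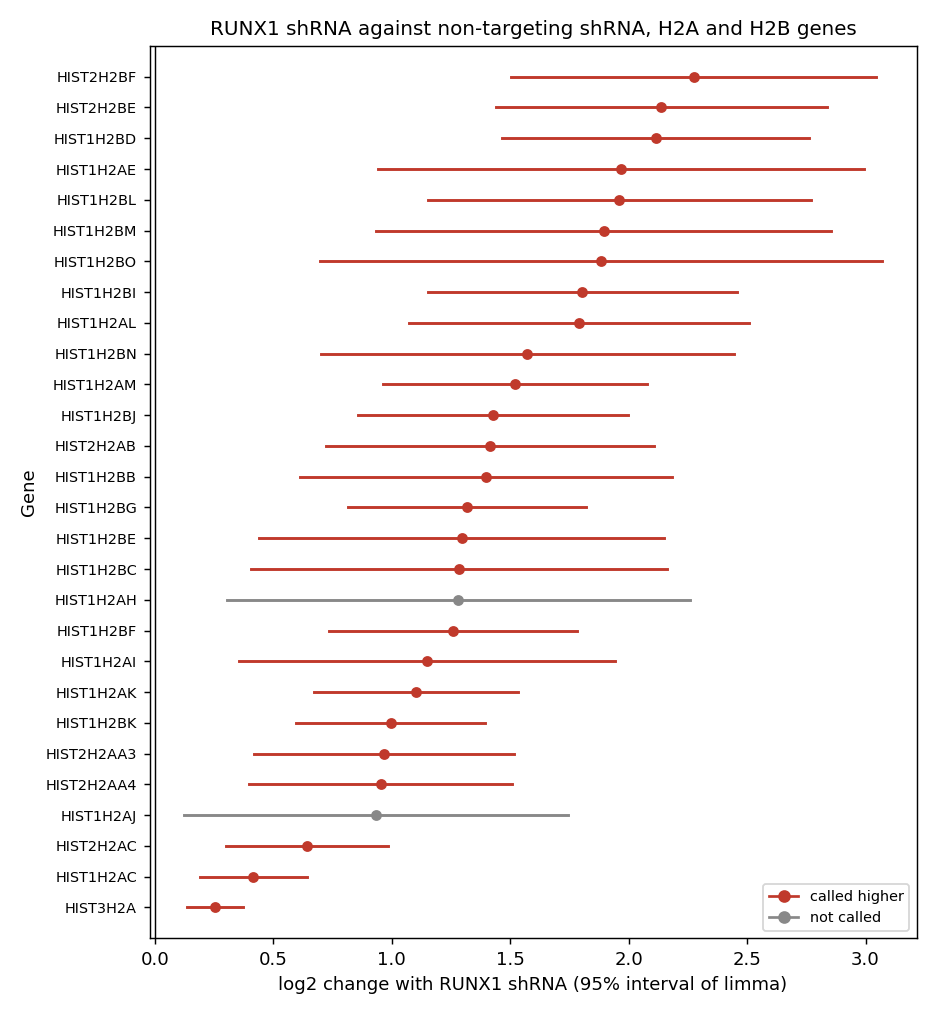
Points give the log2(FPKM + 1) change with RUNX1 shRNA for the 28 tested members, ordered by size, with the 95% interval of limma as lines. All lie above 0, from HIST3H2A at 0.26 to HIST2H2BF at 2.27, and the 2 in grey were not called.

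The other cluster histone genes moved with the H2A and H2B genes. Of the tested H1, H3 and H4 genes 22 of 29 were higher with ARV-825, 20 of 29 with OTX015 and 22 of 22 with RUNX1 shRNA, and 0 were lower in each comparison, at an unadjusted p under 0.05 as well. Over all genes 35.8%, 36.1% and 13.5% were called higher. Without ARV-825 replicate 2 and OTX015 replicate 3 the H1, H3 and H4 counts were 23 of 28 higher with ARV-825 and 22 of 28 with OTX015, with 0 lower. Between the drugs 6 of 29 were higher and 1 lower with ARV-825, and without those libraries 12 of 28 and 4. The shares over all genes were 24.7% and 33.4% in the fit with all libraries, and those of the fit without them are not given. Of 5 replacement variants of H2A, whose genes lie outside the clusters, 3 were higher and 1 lower with either drug, with log2 changes of -0.15 to 1.47 with ARV-825 and -0.19 to 1.78 with OTX015. H2AFX, the variant phosphorylated at DNA breaks and known to give both a stem-loop and a polyadenylated mRNA, was 62.3 FPKM in control, 174 FPKM with ARV-825 (log2 change 1.47, adjusted p = 1.37e-08) and 216 FPKM with OTX015 (1.78, adjusted p = 5.37e-09). H2AFJ was 45.8, 75.1 and 86.3 FPKM in these groups. H2AFY, the macroH2A gene, was slightly lower with both drugs (-0.15 and -0.19).

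The lists of other genes are read beside the shares called over all genes, which were 35.8% higher and 38.4% lower with ARV-825, 36.1% and 33.5% with OTX015, and 13.5% and 13.8% with RUNX1 shRNA. Of 16 genes of 3′ end processing, 1 was higher and 11 were lower with ARV-825 (median log2 change -0.19) and likewise 1 and 11 with OTX015 (median -0.23). The one that was higher was SLBP, the stem-loop binding protein, at 65.7 FPKM in control, 98.4 FPKM with ARV-825 (0.58, adjusted p = 1.68e-06) and 90.6 FPKM with OTX015 (0.46, adjusted p = 1.37e-05). LSM10, a protein of the U7 snRNP ring, was 20.2 FPKM in control, 9.39 FPKM with ARV-825 (-1.03, adjusted p = 1.1e-07) and 12 FPKM with OTX015 (-0.70, adjusted p = 2.91e-06). CPSF2, a subunit of the cleavage factor, went from 42.5 FPKM to 20.9 and 29.3 FPKM. With RUNX1 shRNA 0 of the 16 were called in either direction. At an unadjusted p under 0.05 1 was higher (SNRPE, 0.06, chosen for this count) and 0 were lower. The part of these genes in the histone levels was not tested.

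Of 17 genes of cleavage and polyadenylation 8 were higher and 7 lower with ARV-825, and 7 and 4 with OTX015. This list also holds the transcription elongation genes CDK9, NELFA, NELFB and NELFE. PCF11, which couples cleavage to termination, was 18.4 FPKM in control and 43.2 FPKM with ARV-825 (1.18, adjusted p = 1.49e-07), while NELFA, a subunit of the negative elongation factor, was 19.5 and 8.79 FPKM (-1.07, adjusted p = 1.68e-08). PCF11 was also higher with ARV-825 than with OTX015 (0.93, adjusted p = 6.06e-06) and NELFA lower (-0.63, adjusted p = 5.09e-06). Of 11 genes of histone mRNA decay 4 were higher and 4 lower with ARV-825, and 4 and 3 with OTX015. The helicase UPF1 rose with both (0.89 and 0.61), and the exosome nuclease EXOSC10 fell with both (-0.99 and -0.53).

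Of 11 transcription factors and histone locus body genes 5 were higher and 2 lower with ARV-825, and 9 and 1 with OTX015. CASP8AP2, which encodes the locus body protein FLASH, rose with ARV-825 (0.80) and OTX015 (0.57), as did cyclin E2, CCNE2 (0.75 and 0.59). COIL, the Cajal body protein coilin, fell with ARV-825 (-1.36, adjusted p = 1.51e-08). The acetyltransferase EP300 was higher with OTX015 than control (0.82) and lower with ARV-825 than with OTX015 (-0.94, adjusted p = 1.12e-05). Of 9 chaperones and importers of H2A and H2B, 0 were higher (0 at an unadjusted p under 0.05) and 5 lower with ARV-825, and 2 and 5 with OTX015, among them SET (-0.48 and -0.39) and the FACT subunit SSRP1 (-0.43 and -0.50).

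Of 16 DNA replication genes 6 were higher and 7 lower with ARV-825 and 3 and 6 with OTX015, with medians of 0.08 and -0.09. Their summed level was 1320 ± 60.1 FPKM in control, 1327 ± 25.8 FPKM with ARV-825 and 1402 ± 26.6 FPKM with OTX015. RRM2, a ribonucleotide reductase subunit, rose with OTX015 (0.93, adjusted p = 1.39e-07), and the helicase subunit MCM3 fell with ARV-825 (-0.77, adjusted p = 2.75e-08). With RUNX1 shRNA 0 of 16 were higher, also at an unadjusted p under 0.05, and 6 lower, none by more than 0.20 on the log2 scale, and the sum was 1334 ± 13.7 FPKM with non-targeting and 1262 ± 8.64 FPKM with RUNX1 shRNA. The ratio of these sums was 0.946, beside ratios of 2.50 for the H2A sum and 4.56 for the H2B sum, and the part of DNA replication in the histone levels was not tested. Of the remaining lists with RUNX1 shRNA, 2 of 11 transcription factor and locus body genes were higher and 1 lower, 3 of 17 and 2 of cleavage and polyadenylation, 3 of 11 and 1 of mRNA decay, 2 of 9 and 1 of chaperones, and 2 of 5 and 0 of the H2A variants (1 lower at an unadjusted p under 0.05).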

How the data were processed

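Total RNA of 15 libraries was sequenced, and the treatment label of each gave its group. The authors deposited 1 table of 9 drug libraries and 1 of 6 shRNA libraries with 19620 rows each, from which 16 pseudoautosomal copies were left out. Their values were read as FPKM, which the authors had quantile normalized in each table separately, since TopHat2 2.0, Cufflinks 2.0 and hg19 are listed per the submitters' processing notes. The annotation was not given in the sources used here, and depth is unknown. Members and gene lists were chosen with earlier results of these data known.

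Genes whose mean FPKM in a fit reached 1 were tested as log2(FPKM + 1), a scale that understates changes of low genes, with limma 3.58.1 in R 4.3.3 (lmFit, eBayes with trend, two-sided). Each table had 1 fit with group as the only term. Benjamini-Hochberg adjustment ran over all genes tested (10819 and 10925), with a threshold of 0.05. Whether replicates were separate cultures is not stated, so p-values cover the spread among these libraries only, which may be technical. The fit was tested on simulated data. Named in full were the 10 called members with the largest absolute change in each comparison with a control, the 5 in each direction between the drugs and the 5 highest in control, and of each list up to 4 called genes. Alternatives were another pseudocount, filter, scaling, variance model, replicate block, merged copies and each library left out. RefSeq (GRCh38.p14) and GENCODE 29 served for sequences and spans, with all 35 members matched.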

Additional observations from a re-analysis of the deposited data

How the results depend on the processing

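With RUNX1 shRNA 16 members were called with no filter on low values, 8 with a mean of at least 5 FPKM and 17 without RUNX1 shRNA replicate 1, against 26, and leaving out 1 library gave 17 to 28. The causes were not tested, except that the stricter filter leaves 8 members to test. Leaving out 1 library gave 24 to 29 calls for ARV-825, 22 to 30 for OTX015 and 12 to 14 between the drugs. Counting HIST2H2AA3 and HIST2H2AA4 as their mean, chosen after seeing the data, lowered the H2A sum to 48.0 FPKM in control, 389 with ARV-825, 617 with OTX015 and 26.0 with non-targeting shRNA. Leaving out 1 library moved HIST1H2BI with ARV-825 between -0.54 and 0.52. Without ARV-825 replicate 2 it was at -0.54 (adjusted p = 0.39), and at -0.54 (adjusted p = 0.198) also without OTX015 replicate 3, a setting added after seeing the data. The labels give the replicate numbers no meaning. Libraries of the same number correlated at -0.32 to 0.06 over all genes tested, as deviations from their group means. The highest correlation between libraries of different groups was 0.41, of ARV-825 replicate 2 with OTX015 replicate 3. With the replicate block 25 members were called for ARV-825, 25 for OTX015, 12 between the drugs and 27 with RUNX1 shRNA, and HIST1H2AM with ARV-825 (adjusted p = 0.0556) and HIST2H2BE between the drugs (adjusted p = 0.0559) were not called. No other change from a control group and no called difference between the drugs changed direction under the alternatives run. Members not called between the drugs were not followed through each of these alternatives.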
